A study of Gallus gallus with 3 samples.

Results

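The genes described are 8 members of the apoptosis machinery, measured in chicken DT40 cells: BCL2, BCL2L1, BIRC5 and the caspase genes CASP1, CASP2, CASP6, CASP8 and CASP9. They were found through the RefSeq accession of each array probe. Probes were matched for 6 of the 8 genes, with 14 probes on 22 spots, among 5382 genes named on the array. CASP1, the inflammatory caspase, and CASP9, the caspase activated on the apoptosome, had no matched probe (0 probes each) and are not analysed here. Each of the 14 probes gave a signal well above background on the 3 arrays.

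DT40 is a B-cell lymphoma line used for gene targeting, and H2A.Z is a histone H2A variant. The series compared H2A.Z double-knockout (DKO) cells that carry a mutant H2A.Z1ΔC, DKO cells that carry H2A.Z1, and wild-type cells. They are called H2A.Z1ΔC, H2A.Z1 and wild-type cells below. Each was hybridised once, so 1 array stands for each group, no difference has a replicate check and no test was made. What the ΔC change removes, how the transgenes are driven and whether a line is a single clone are not given in the sources used here. The extraction protocol in the labels is one for blood, with removal of globin RNA. Levels are log2 signal relative to the 75th percentile of the array's signals, so a difference of 1 is a doubling, and levels of different probes cannot be set against each other.

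In the mitochondrial pathway of apoptosis, anti-apoptotic proteins of the BCL2 family hold back BAX and BAK, which otherwise open the outer mitochondrial membrane and release cytochrome c. Initiator caspases then cleave and activate executioner caspases, which take the cell apart. In the death receptor pathway, ligand-bound receptors lead to activation of caspase-8. In B cells the balance between anti-apoptotic BCL2 relatives changes during development, and BCL2L1 (BCL-xL) and BCL2 are both known as survival factors of lymphocytes.

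The 2 probes of H2AFZ, the gene that encodes H2A.Z1, had levels of -0.21 and -0.85 in H2A.Z1ΔC cells, 0.81 and -0.31 in H2A.Z1 cells, and 5.87 and 6.17 in wild-type cells. Both probes were far lower in the DKO lines. Whether these probes can read the transgenes is not given in the sources used here. Per the file headers, the H2A.Z1ΔC array lay on slide 2 and was scanned on another occasion than slide 1, which held the other arrays, so slide and line cannot be told apart wherever H2A.Z1ΔC cells are compared. Spots of probes printed 5 times differed with a standard deviation (SD) of 0.105, 0.0702 and 0.0743 log2 units on the H2A.Z1ΔC, H2A.Z1 and wild-type arrays (35 probes). This spread covers spotting and scanning only, and having a single array per line sets the precision. Of the B-cell marker genes, 15 of 17 with a probe had one well above background on each array. RAG1 had none (0 of 2 probes on any array). A probe well above background on each array was also found for 5 of 8 T-cell, 4 of 7 myeloid, 3 of 5 erythroid and 3 of 5 fibroblast genes. The series matrix holds a second value for each sample. It equals the scanner signal times a single factor for the H2A.Z1ΔC and wild-type samples. For the H2A.Z1 sample it does not, since the log2 ratio scattered with a robust SD of 0.322 over 29175 spots, so differences of the 6 genes that rest on that sample are given with both values. Values of other genes are scanner values unless the matrix is named.

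BCL2, the founding anti-apoptotic member of its family, had the widest range over the lines among the 6 measured genes. Its signal was 537 intensity units in H2A.Z1ΔC cells, 197 in H2A.Z1 cells and 408 in wild-type cells, which gives levels of -0.95, -2.98 and -1.83. It was highest in H2A.Z1ΔC cells and lowest in H2A.Z1 cells. Only 1 probe on a single spot reads BCL2, so no second probe bears on these values. In bulk RNA, fewer cells with the transcript and less transcript per cell cannot be told apart.

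In H2A.Z1ΔC against H2A.Z1 cells BCL2 was higher by a log2 difference of 2.03, which is 4.08-fold. The difference was 1.37 with the matrix value of the H2A.Z1 sample, whose level was -2.32. Of 29499 probes measured on both arrays, 0.715% were higher by at least as much. Over the 1000 probes closest to it in mean signal, the differences had a median of 0.01 and a robust SD of 0.373. BCL2 thus lay far out among probes of like brightness on these arrays.

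In H2A.Z1 against wild-type cells BCL2 was lower by a log2 difference of -1.15, or 2.22-fold. As far down as this were 1.71% of 29230 probes, and the 1000 probes of like signal had a robust SD of 0.289. With the matrix value the difference was -0.49, which does not reach a difference of 1. Normexp background correction, which models the signal above each spot's local background, gave -0.90 after quantile normalization and -0.95 after scaling to the 75th percentile. Whether BCL2 lay 1 or more below wild type in H2A.Z1 cells therefore depended on the values used. In H2A.Z1ΔC against wild-type cells it was higher by 0.88 (1.84-fold), with 0.69 to 0.88 over the settings tried. As far up as this were 5.13% of 29594 probes, with a robust SD of 0.417 over those of like signal. The difference against wild type thus had opposite signs in the DKO lines. These comparisons share their arrays and are not independent.

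Among the 6 measured genes, BCL2 alone differed by 1 or more on the log2 scale in H2A.Z1 minus wild-type (1 of 6, beside 3.37% of 4218 genes and 3.67% of 29230 probes). It was also the gene past 1 in H2A.Z1ΔC minus H2A.Z1 (1 of 6, beside 4.67% of 4237 genes and 5.33% of 29499 probes). For H2A.Z1ΔC minus wild-type the count was 0 of 6, beside 6.92% of 4264 genes and 7.62% of 29594 probes. The median difference over the 6 genes was 0.01, -0.10 and -0.15 in these comparisons, against -0.02, 0.02 and 0.00 over all genes. The other 5 genes stayed within a difference of 1 throughout.

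**Figure D1:**
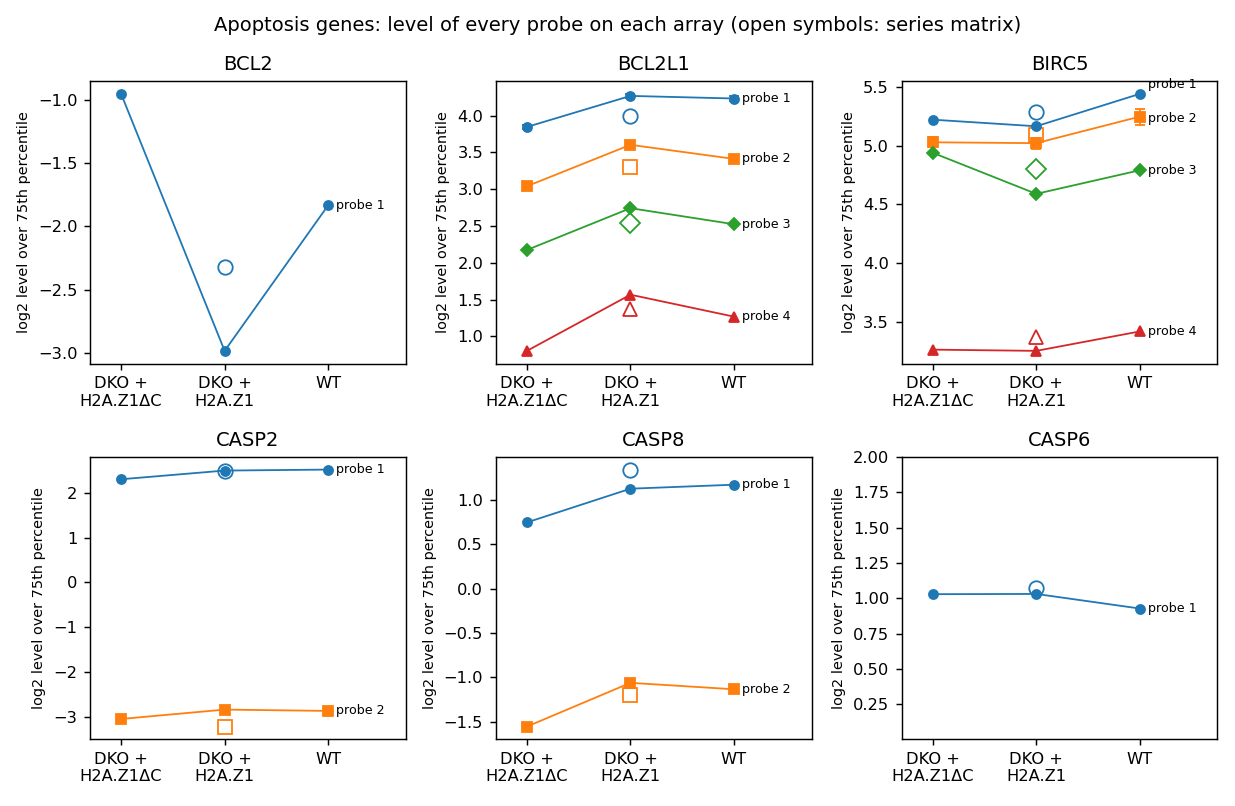
Levels of all 14 probes on each array (y axis, log2 signal over the array's 75th percentile) with 1 panel per gene and the H2A.Z1ΔC, H2A.Z1 and wild-type lines from left to right. Filled symbols are scanner values, open symbols the matrix value of the H2A.Z1 sample, and error bars (SD over 5 spots) are drawn for probe 1 of BCL2L1 and probe 2 of BIRC5. BCL2 spans from -0.95 in H2A.Z1ΔC to -2.98 in H2A.Z1 cells, while the 4 BCL2L1 probes are lowest in H2A.Z1ΔC cells.

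BCL2L1, which encodes the anti-apoptotic BCL-xL, was lowest in H2A.Z1ΔC cells by every probe. Its brightest probe had levels of 3.85 ± 0.027 in H2A.Z1ΔC cells, 4.27 ± 0.027 in H2A.Z1 cells and 4.23 ± 0.033 in wild-type cells (SD, 5 spots on each array). The other 3 probes had levels of 3.04, 2.17 and 0.80 in H2A.Z1ΔC cells, 3.60, 2.74 and 1.57 in H2A.Z1 cells, and 3.41, 2.52 and 1.27 in wild-type cells. With the scanner values all 4 probes gave the same order of the arrays, with H2A.Z1 above wild-type and wild-type above H2A.Z1ΔC. The brightest probe differed by only 0.04 between H2A.Z1 and wild-type cells. With the matrix values only 2 of 4 probes were higher in H2A.Z1 than in wild-type cells.

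In H2A.Z1ΔC against H2A.Z1 cells BCL2L1 was lower by a mean log2 difference of -0.58 ± 0.14 (SD, 4 probes), or 1.49-fold. With the matrix values this was -0.34 ± 0.18, and all 4 probes were again lower in H2A.Z1ΔC cells. Against wild type, H2A.Z1ΔC cells were lower by -0.39 ± 0.05, with probes from -0.46 to -0.35. Probes of 1 gene are read on the same array and are not replicates of a line, so these SDs say only how well the probes agree among themselves. Both differences exceeded the spread between repeated spots, which is 0.127 for H2A.Z1ΔC minus H2A.Z1 and 0.129 for H2A.Z1ΔC minus wild-type.

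H2A.Z1 and wild-type cells were close in BCL2L1. The mean difference was 0.19 ± 0.11 (SD, 4 probes) with the scanner values, and -0.06 ± 0.15 with the matrix values, where 2 of 4 probes were higher. No order of these lines can be read from it. BCL2 and BCL2L1, which share the anti-apoptotic role, thus differed in opposite directions between H2A.Z1ΔC and H2A.Z1 cells, and between H2A.Z1ΔC and wild-type cells. The opposite signs between H2A.Z1ΔC and H2A.Z1 cells held with the matrix values.

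BIRC5 encodes survivin, a small protein with a BIR domain that works in the chromosomal passenger complex at mitosis and is also known as an inhibitor of apoptosis. Its probe on 5 spots had levels of 5.03 ± 0.043 in H2A.Z1ΔC cells, 5.02 ± 0.046 in H2A.Z1 cells and 5.25 ± 0.067 in wild-type cells (SD, 5 spots). Wild-type cells were above both DKO lines by this probe. H2A.Z1 cells were lower than wild type by -0.22 ± 0.05 (SD, 4 probes), and 4 of 4 probes were lower, from -0.28 to -0.17. With the matrix values the difference was -0.09 ± 0.08 and 3 of 4 probes were lower.

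The BIRC5 probes did not agree on the H2A.Z1ΔC line. Probes 1, 2 and 4 differed from wild type by -0.22, -0.22 and -0.15, but probe 3 by 0.15. From H2A.Z1 cells, probes 1 to 4 differed by 0.06, 0.01, 0.35 and 0.01. Probe 3 thus set most of the mean difference of 0.11, and the H2A.Z1ΔC and H2A.Z1 lines could not be put in order by the other probes. With the matrix values the mean was -0.02 ± 0.11 (SD, 4 probes), of the other sign.

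CASP8, the initiator caspase of the death receptor pathway, had levels of 0.75 and -1.56 in H2A.Z1ΔC cells, 1.13 and -1.06 in H2A.Z1 cells, and 1.17 and -1.13 in wild-type cells. Both probes were lowest in H2A.Z1ΔC cells. The mean log2 difference was -0.44 ± 0.08 against H2A.Z1 cells and -0.42 ± 0.0034 against wild type (SD, 2 probes), which are 1.35-fold and 1.34-fold. With the matrix values the first was -0.48 ± 0.17. H2A.Z1 and wild-type cells differed by 0.01 ± 0.08, with 1 probe higher and 1 lower, and by 0.05 ± 0.16 with the matrix values. No order of these lines can be read from CASP8.

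CASP2 encodes caspase-2, an initiator-type caspase known from the response to DNA damage and to errors of cell division. Its brighter probe had levels of 2.30 in H2A.Z1ΔC cells, 2.49 in H2A.Z1 cells and 2.51 in wild-type cells, and its dimmer probe -3.04 in H2A.Z1ΔC cells, -2.83 in H2A.Z1 cells and -2.86 in wild-type cells. H2A.Z1ΔC cells were lower by -0.20 ± 0.01 against H2A.Z1 and -0.20 ± 0.03 against wild-type cells (SD, 2 probes). The first of these was -0.01 ± 0.25 with the matrix values, where the probes went opposite ways. H2A.Z1 and wild-type cells differed by 0.00 ± 0.04, and by -0.19 ± 0.22 with the matrix values.

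CASP6, an executioner caspase that cleaves nuclear lamins, had 1 probe with levels of 1.03 in H2A.Z1ΔC cells, 1.03 in H2A.Z1 cells and 0.93 in wild-type cells. H2A.Z1ΔC cells differed by 0.00 from H2A.Z1 cells and by 0.10 from wild-type cells, and H2A.Z1 cells by 0.10 from wild-type cells. With the matrix value the first was -0.05 and the last 0.15. The scanner differences were no larger than the spread between repeated spots (0.102 to 0.129) or about equal to it.

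**Figure D2:**
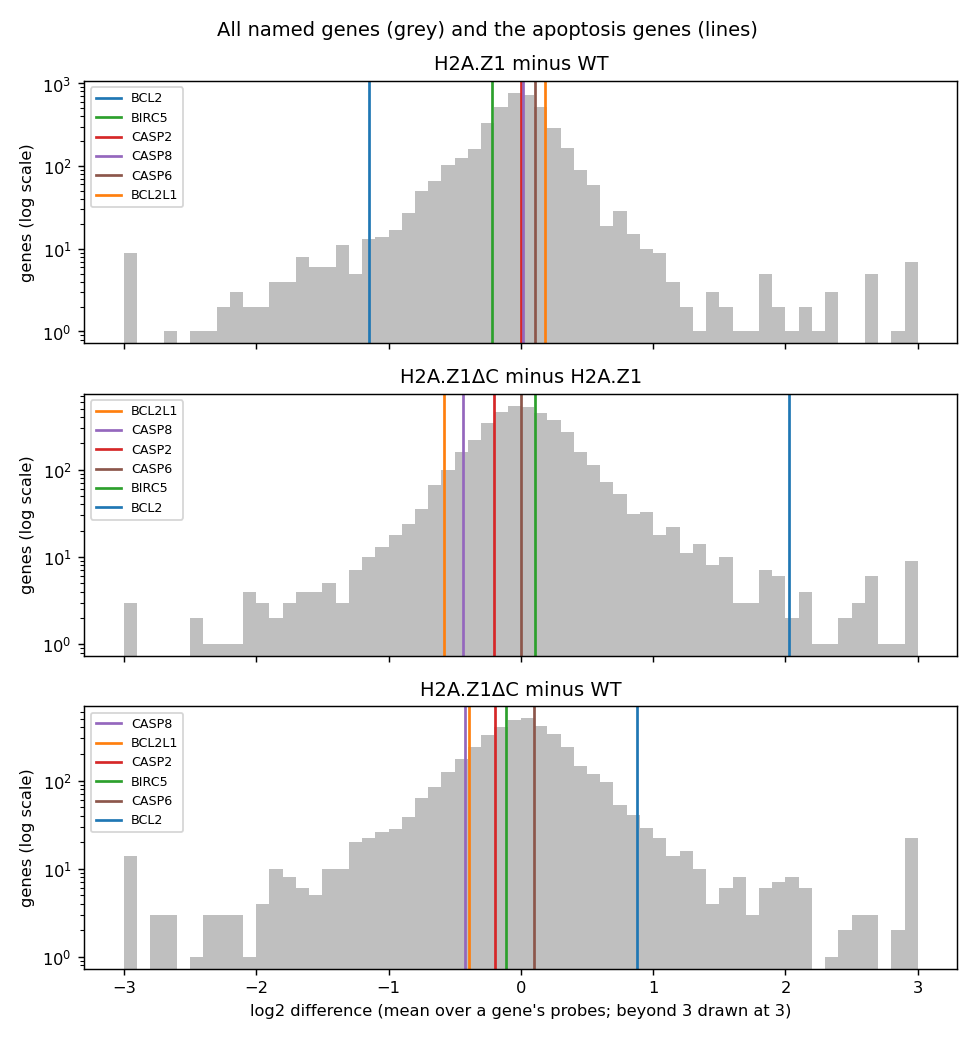
Distribution of log2 differences over all named genes (grey, gene count on a log axis, differences beyond 3 drawn at 3) with the 6 apoptosis genes as coloured lines, 1 panel per comparison. BCL2 lies at -1.15, 2.03 and 0.88 from the top panel down, and the other 5 genes lie between -0.58 and 0.19.

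How far a single probe can stray was read from genes with several probes. Over 2759 such genes the SD between probes of a gene was 0.231 for H2A.Z1ΔC minus H2A.Z1, and it was 0.156 for H2A.Z1 minus wild-type (2744 genes) and 0.262 for H2A.Z1ΔC minus wild-type (2753 genes). The BCL2 differences were larger than these in each comparison. Those of BCL2L1 and CASP8 were larger in both comparisons with the H2A.Z1ΔC array. Against wild type, however, 15.0% to 20.8% of all probes lay at least as far down as the single BCL2L1 probes. For the CASP8 probes this share was 16.8% and 17.0%. For H2A.Z1ΔC minus H2A.Z1 the shares were 3.53% to 11.8% (BCL2L1), and 13.7% and 8.97% (CASP8). For H2A.Z1 minus wild-type, BCL2L1 (0.19) and BIRC5 (-0.22) also exceeded the SD. There BCL2L1 was below it with the matrix values (-0.06) and by its brightest probe alone (0.04), and BIRC5 was below it with the matrix values (-0.09), with quantile normalization (-0.15) and with quantile normalization after normexp (-0.15). The differences of CASP2 and CASP6 were smaller than the SD with the scanner values scaled to the 75th percentile. CASP2 exceeded it with the matrix values for H2A.Z1 minus wild-type (-0.19) and with median scaling for H2A.Z1ΔC minus H2A.Z1 (-0.30). The SD was taken from the scanner values scaled to the 75th percentile, so it is not the probe spread of the matrix values. With median scaling the median over all genes was itself -0.08 for H2A.Z1ΔC minus H2A.Z1.

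**Figure D3:**
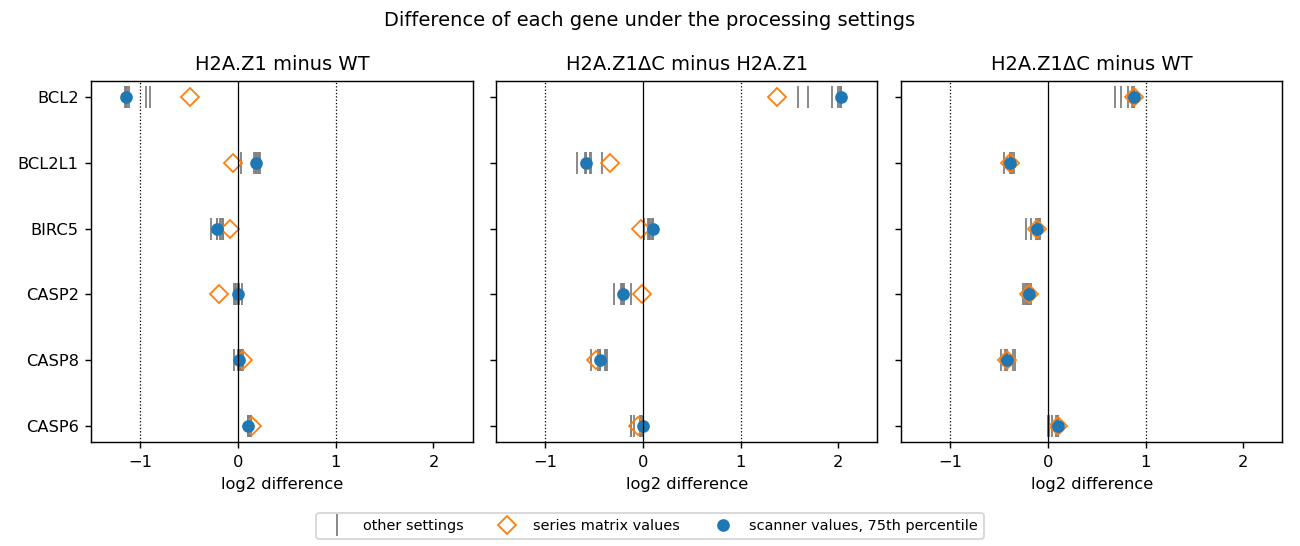
Log2 difference of each gene in the 3 comparisons under the scanner values scaled to the 75th percentile (filled circles), the series matrix values (open diamonds) and the other processing settings (vertical ticks), with dotted lines at -1 and 1. The BCL2 difference between H2A.Z1ΔC and H2A.Z1 cells lies between 1.37 and 2.03, and that of BCL2L1 between -0.67 and -0.34.

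Among 4194 named genes measured on all arrays, the genes with levels most like those of BCL2 over the 3 arrays, by the distance between centred log2 levels, were MBNL2 (0.218), PTPRS (0.265) and AMPD3 (0.368). MBNL2, a splicing regulator of the muscleblind family, differed by 1.77 between H2A.Z1ΔC and H2A.Z1 cells and by -0.87 between H2A.Z1 and wild-type cells. The genes most like BCL2L1 were CNPPD1, TTC30B and CNP, with distances of 0.0091 to 0.0146. With 3 arrays, likeness of this kind is a description only.

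Genes near BCL2 did not share its pattern. The 10 measured genes closest to it in the RefSeq gene order, 5 on each side, had differences from -0.80 to 0.02 in H2A.Z1ΔC against H2A.Z1 cells, with a median of -0.11. The highest of them was thus far below the 2.03 of BCL2. The closest measured genes on each side, KDSR and DROSHA, differed by 0.02 and -0.09. The 10 neighbours of BCL2L1 had a median of 0.23 and a range from -0.28 to 0.90, where BCL2L1 itself was lower.

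Other genes of the pathways were taken from 9 lists with 132 symbols, of which 61 had a probe. For H2A.Z1 minus wild-type, 0 of 51 measured genes were higher by 1 or more and 2 were lower, beside 1.19% of all genes higher and 2.18% lower. For H2A.Z1ΔC minus H2A.Z1, 2 of 51 were higher and 0 lower, beside 3.12% and 1.56%. For H2A.Z1ΔC minus wild-type, 2 of 50 were higher and 0 lower, beside 3.35% and 3.56%. These shares were near those of all genes, and they rest on the scanner values. For H2A.Z1ΔC minus H2A.Z1, BIK (0.30) and TNFRSF1A (0.92) did not reach 1 with the matrix values. BMF did, at 1.35, beside 0.40 with the scanner values. For H2A.Z1 minus wild-type, TP63 reached 1.10 with the matrix values, beside 0.22, and TNFRSF1A was at -0.88. The values that follow are descriptions of single genes.

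Of the other BCL2 relatives, BIK, a pro-apoptotic BH3-only protein in mammals, was higher in H2A.Z1ΔC cells by both probes. Its levels were -0.47 and -1.08 in H2A.Z1ΔC cells, -1.63 and -2.36 in H2A.Z1 cells, and -1.79 and -2.34 in wild-type cells. H2A.Z1ΔC and H2A.Z1 cells differed by 1.22, but by only 0.30 with the matrix values, and H2A.Z1ΔC and wild-type cells by 1.29. BAK1, a pore-forming effector, had the lowest value of the list for H2A.Z1ΔC minus H2A.Z1 at -0.41, and its 4 probes lay between -0.60 and -0.30. Against wild type it was higher in H2A.Z1 cells (0.46), while H2A.Z1ΔC cells were close to wild type (0.05, probes from -0.22 to 0.29). MCL1, an anti-apoptotic relative named after its values were seen, had probes that disagreed for H2A.Z1ΔC minus H2A.Z1, at -0.85 and 0.39. Over the 12 measured relatives the median there was 0.20, beside 0.02 over all genes. Anti-apoptotic BCL2 and pro-apoptotic BIK were therefore both higher in H2A.Z1ΔC than in H2A.Z1 cells.

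Of the death receptor genes, TNFRSF1A, a receptor of tumour necrosis factor, had levels of -2.90 in H2A.Z1ΔC cells, -4.04 in H2A.Z1 cells and -2.95 in wild-type cells by its brighter probe. It was lowest in H2A.Z1 cells, as BCL2 was, with differences of -1.10 from wild type and 1.15 between H2A.Z1ΔC and H2A.Z1 cells. The matrix values gave -0.88 and 0.92. The signal of the dimmer probe did not stand well above background in H2A.Z1 cells, and the measured signal was 3.03-fold higher in H2A.Z1ΔC cells. Such a fold, here and for IL18 below, sets the brighter signal against the dimmer array's own signal for the probe. That signal was not well above background, so the fold is uncertain and is no firm lower limit. TNFRSF1B, the second receptor, had -0.58 in H2A.Z1ΔC against H2A.Z1 cells. CRADD, an adaptor that links caspase-2 to its activating platform, had -0.63 in H2A.Z1ΔC against wild-type cells. CFLAR, a CASP8 relative without protease activity that is adjacent to CASP8 among the measured genes in RefSeq order, differed by -0.31 and -0.33 in H2A.Z1ΔC cells from H2A.Z1 and from wild-type cells, where CASP8 differed by -0.44 and -0.42. It was named after its values were seen.

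Among caspase substrates and death effectors, 0 of 10 measured genes differed by 1 or more in any of the 3 comparisons. Over all genes the shares were 3.37% (H2A.Z1 minus wild-type), 4.67% (H2A.Z1ΔC minus H2A.Z1) and 6.92% (H2A.Z1ΔC minus wild-type), so a count of 0 in so short a list says little. DFFB, the nuclease that cuts DNA between nucleosomes, had 0.78 in H2A.Z1ΔC against wild-type cells. GSDMA, of the pore-forming gasdermin family, had 0.76 for H2A.Z1ΔC minus H2A.Z1, but -0.26 with the matrix values. For H2A.Z1 minus wild-type GSDMA had -0.99, just short of 1, but 0.03 with the matrix values. From other lists, CYCS, which encodes cytochrome c, had 0.34 in H2A.Z1ΔC against wild-type cells. The 2 measured genes of the inhibitor of apoptosis list went opposite ways there, with BIRC2 at -0.31 and BIRC8 at 0.34. None of these reached a difference of 1.

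In the p53 axis, GADD45A, a stress-response gene with 1 probe, had levels of 3.49 in H2A.Z1ΔC cells, 2.55 in H2A.Z1 cells and 2.30 in wild-type cells. It was higher by 1.19 in H2A.Z1ΔC against wild-type cells and by 0.94 against H2A.Z1 cells, which was 0.61 with the matrix values. The list as a whole did not share the first of these. Its median for H2A.Z1ΔC minus wild-type was -0.12, and 3 of 7 measured genes were above 0. For H2A.Z1ΔC minus H2A.Z1 it was 0.27, with 5 of 7 above 0. Of the genes whose products are caspase-1 substrates in mammals, IL18 encodes a cytokine precursor. The signal of its brighter probe was not well above background in H2A.Z1ΔC cells, while its level was -5.71 in H2A.Z1 cells and -4.00 in wild-type cells. By the measured signals of this probe H2A.Z1ΔC cells were 11.5-fold below wild type. Against H2A.Z1 cells they were 3.52-fold lower, but only 1.78-fold with the matrix value of the H2A.Z1 sample. The other IL18 probe was not well above background on any array. H2A.Z1 cells differed from wild type by -1.71, or by -2.69 with the matrix values. The other such gene, IL1B, had 0.31 in H2A.Z1ΔC against wild-type cells.

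The list of mitotic partners of BIRC5 had 4 measured genes, INCENP, PLK1, BUB1 and SGO1. AURKB and CDCA8, also on the list, had no matched probe. INCENP, the scaffold of the chromosomal passenger complex, had levels of 1.86 in H2A.Z1ΔC cells, 2.32 in H2A.Z1 cells and 2.57 in wild-type cells. It was lower by -0.71 in H2A.Z1ΔC against wild-type cells and by -0.46 against H2A.Z1 cells. SGO1, which guards centromeric cohesion, had -0.57 and -0.61 in the same comparisons, with the second at -0.21 from the matrix values. The gene of the mitotic kinase PLK1 had 0.18 and 0.11. BUB1, named after its values were seen, had -0.01 and -0.23. The list median was -0.34 for H2A.Z1ΔC minus H2A.Z1, beside 0.02 over all genes, and the list holds only 4 measured genes.

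**Figure D4:**
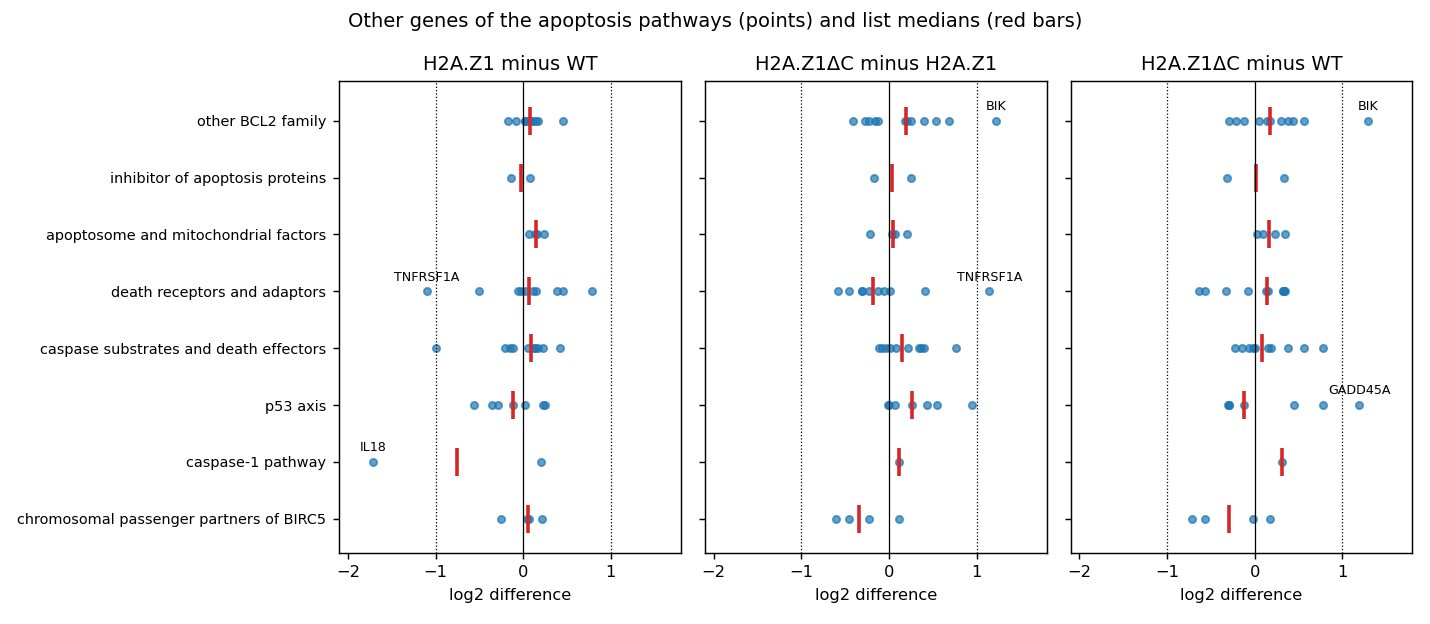
Log2 differences of the measured genes of 8 apoptosis-related lists (points) and list medians (red bars) in the 3 comparisons, with dotted lines at -1 and 1 and names of genes past them. BIK lies at 1.22 and 1.29 in the comparisons with the H2A.Z1ΔC array, and TNFRSF1A at -1.10 and 1.15 in those with the H2A.Z1 array.

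Markers of other cell types also differed between the arrays, and the fibroblast list was highest in H2A.Z1 cells, in which BCL2 was lowest. The summed linear level of the fibroblast list (signal over the 75th percentile, 23 probes) was 0.450 in H2A.Z1ΔC cells, 1.60 in H2A.Z1 cells and 0.464 in wild-type cells. Only 8 of these probes were well above background on each array, and the sum takes in all of them. Such sums add levels of different probes, so the part of a gene in a sum is rough. DCN, a defining gene of that list, was not well above background on any array (0 of 2 probes). Most of the sum came from COL1A2, a collagen gene, with 0.302 in H2A.Z1ΔC, 1.35 in H2A.Z1 and 0.293 in wild-type cells. LUM and VIM were also highest in H2A.Z1 cells. COL3A1, a collagen gene with 10 probes, was instead highest in wild-type cells, with 0.0442 in H2A.Z1ΔC, 0.0873 in H2A.Z1 and 0.105 in wild-type cells. The B-cell list was highest in H2A.Z1ΔC cells, with 1605 in H2A.Z1ΔC, 1262 in H2A.Z1 and 1194 in wild-type cells. Most of it came from IGLL1, with 1385 in H2A.Z1ΔC, 1043 in H2A.Z1 and 997 in wild-type cells. CD79B, IRF4 and TNFRSF13B were also highest in H2A.Z1ΔC cells. PAX5, EBF1, BTK, SYK, POU2AF1, TNFRSF13C, CD40 and BCL6 were instead lowest there. The T-cell, myeloid and erythroid lists were highest in wild-type cells. The T-cell list summed to 55.9 in H2A.Z1ΔC, 81.4 in H2A.Z1 and 95.0 in wild-type cells, nearly all of it from CD3D, and CD4 was not well above background on any array (0 of 2 probes). The part of these differences in the values of BCL2, TNFRSF1A or BCL2L1 was not tested.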

How the data were processed

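Total RNA of 3 DT40 lines, labelled with Cy3, was read on 1-colour Agilent chicken arrays, 1 array per line. Per the file headers, Agilent Feature Extraction 11.5.1.1 gave the deposited processed signal, a linear intensity from which background was subtracted and which was detrended on each array but not scaled across arrays. How the intensity of the deposited series matrix was made is not given in the sources used here.

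Each processed signal was put on a log2 scale, the 75th percentile of that array's 43803 non-control spots was subtracted, and spots of the same probe were averaged. Outlier-flagged spots (13) were dropped, which lost 7 of 43603 probes, none of them of a gene described here. Probes had to be well above background on the arrays compared. Gene values are means over probes. RefSeq accessions were matched without version to a RefSeq gene table of assembly GRCg7b, which named 27.4% of probes. The array's annotation is galGal3 (per the file headers), so that table gave names and gene order only. Normexp (offset 50) used the median signal. Quantile normalization was applied to the normexp values and, as a separate setting, to the processed signal. Both used limma 3.58.1 in R 4.3.3. Other steps used Python 3.11.15. The calculation of differences was tested on simulated arrays.

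The genes, lists and settings were chosen with earlier results of these data known. Genes named from the 9 pathway lists were those past a log2 difference of 1 and those with the highest or lowest value in a comparison with H2A.Z1ΔC cells. BMF and TP63 were named for their matrix values, after these were seen. Some genes are not reported here.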

Additional observations from a re-analysis of the deposited data

How the results depend on the processing

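Differences of single genes were recomputed 162 times (6 genes, 3 comparisons). Of these, 153 moved by less than the SD between probes of a gene and 9 by more. The sign differed from that in the text for 8, none of them a difference of 1 or more. Many of the 162 could not move. All 14 probes passed the background filter and were brighter than the median, so those settings changed nothing. Nor could the brightest probe change genes with 1 probe, or the matrix values H2A.Z1ΔC minus wild-type. Most of the 9 were BCL2, at -0.90, -0.95 and -0.49 beside -1.15, and 1.59, 1.69 and 1.37 beside 2.03. The rest were BCL2L1 and CASP2 with the matrix values. BCL2 in H2A.Z1ΔC minus H2A.Z1 cells kept its direction and stayed past 1 in all settings tried. In H2A.Z1 minus wild-type cells 1 of the 6 genes differed by 1 or more, against 0 under either normexp setting and with the matrix values. In H2A.Z1ΔC minus wild-type cells the count was 0, against 1 at the 1.5-fold threshold. The number of probes changed over the array was 1073, 1571 and 2255 (H2A.Z1 minus wild-type, H2A.Z1ΔC minus H2A.Z1, H2A.Z1ΔC minus wild-type). It was 447, 649 and 1099 with quantile normalization after normexp, 487, 765 and 1121 with the 75th percentile after it, 604, 842 and 1315 over probes brighter than the median, and 3259, 4850 and 6306 at 1.5-fold. The first count was 2093 with the matrix values and 1672 without a background filter. Normexp with the 75th percentile put the median of all probes at 0.13 and 0.12 in the comparisons with the H2A.Z1ΔC array, where BCL2 lay 1.61 (minus H2A.Z1) and 0.68 (minus wild-type) above the median of all genes. Removal of a running median over brightness, chosen after seeing the data, left every count within a factor of 1.5. The cause of these shifts was not tested. With 1 array per line no replicate could be left out. No paired analysis was possible because each group has 1 array.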
